A study of Mus musculus with 2 samples.

Results

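The genes described here encode metalloproteinases that act at the cell surface and in the extracellular matrix, together with their tissue inhibitors: the ADAM, ADAMTS and matrix metalloproteinase (MMP) families and the TIMPs. The rule takes, by symbol, every gene of these families that a probe set names as its only gene and uses no measured value, although the families were picked with earlier results of these data known. This gave 65 genes on 116 probe sets, of 18193 genes named in this way and 45101 probe sets on the array. By family there were 28 ADAM, 15 ADAMTS, 18 MMP and 4 TIMP genes. A gene's value was taken from the probe set with the highest mean signal over both arrays, and its other probe sets were used as a check.

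The samples were embryoid bodies, aggregates in which embryonic stem cells start to differentiate, grown in hanging drops from CGR8, a mouse embryonic stem cell line of strain 129 kept without feeder cells, and labelled day 2. The control sample had differentiation medium only, and the other sample had the same medium with recombinant FGF10, a secreted fibroblast growth factor, at 100 ng/ml. The design text instead places RNA collection 24 hours after the addition of FGF10 to embryoid bodies already 2 days old, so the exact stage is uncertain. Each group had 1 array of whole embryoid bodies from 1 cell line, so no test or replicate check was possible, variation between cultures is unknown, and each difference below is one between these 2 arrays.

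ADAMs are membrane-anchored proteinases that cut the extracellular parts of other membrane proteins, releasing growth factors and cutting Notch receptors and cadherins, although some members lack a working active site and serve in adhesion. ADAMTS proteinases are secreted and bind the matrix, where different members cut proteoglycans such as versican, remove the propeptides of fibrillar collagens or process other matrix proteins. MMPs degrade collagens and other matrix components, and TIMPs block MMPs and some ADAM and ADAMTS enzymes. In the early embryo these enzymes take part in the remodelling of matrix through which cells leave the epiblast at gastrulation.

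Signals came from the MAS5 algorithm, and the ratio of a probe set is log2 of FGF10 over control, centred on the median of all probe sets that passed a signal filter. The filter required a mean signal of at least 76.35, the median over all probe sets other than chip controls. Signals of different probe sets depend on their probes and were not compared as transcript amounts. Of the 65 genes, 26 passed the filter (9 of 28 ADAM, 8 of 15 ADAMTS, 5 of 18 MMP and 4 of 4 TIMP), and 39 did not. Among the 26, 4 were at least 1.5-fold higher on the FGF10 array (Adamts9, Adamts6, Adam19 and Adamts3), against 5.41% of the 11122 genes that passed the filter. Another 5 were at least 1.5-fold lower (Adamts16, Adam4, Mmp17, Adam11 and Adam15), against 4.86% of all genes, and 17 lay within 1.5-fold. At 2-fold there were 2 higher members (Adamts9 and Adamts6), against 1.32% of all genes, and 1 lower (Adamts16), against 1.29%. Adamts6 and Adamts16 passed the filter only through the array on which they are higher, and with both signals required to pass it, Adamts9 was the 1 member left past 2-fold. The median log2 ratio of the 26 was -0.0092, and that of all 11122 genes was -0.027. The families therefore had no common direction, with 12 members above 0 and 14 below.

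**Figure D1:**
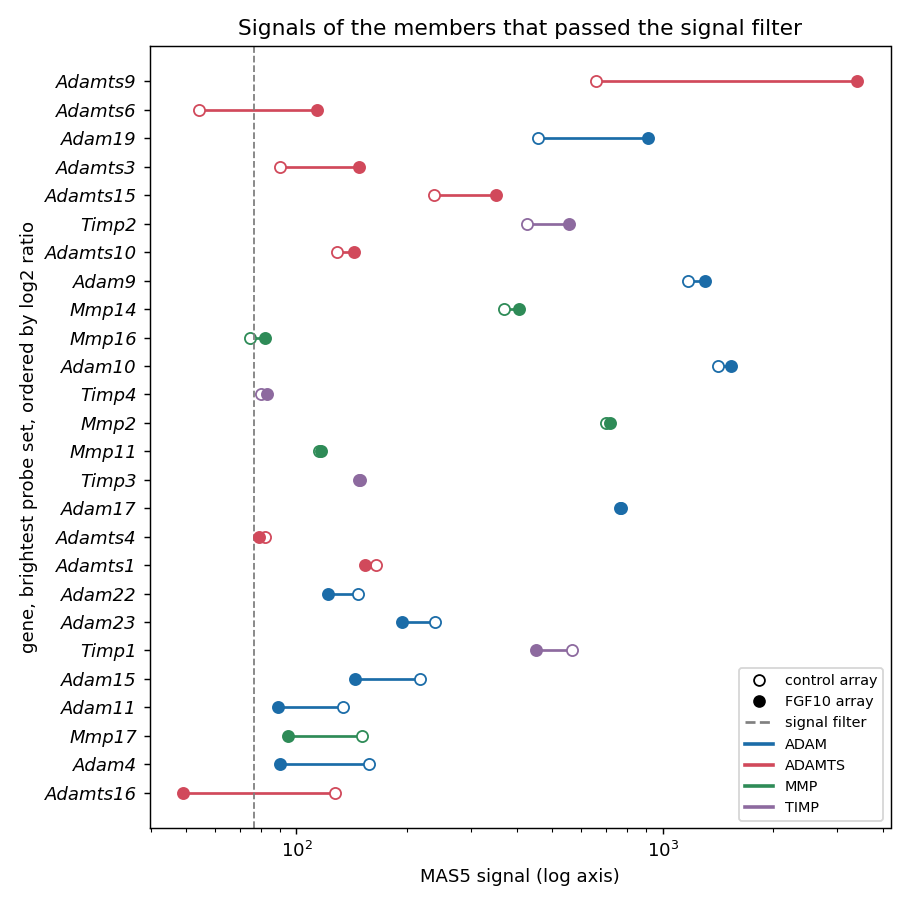
MAS5 signal (log axis) on the control array (open circles) and the FGF10 array (filled circles) for the 26 genes that passed the signal filter, 1 line per gene, read from the brightest probe set and ordered by log2 ratio, with colour for family and a dashed line at the filter of 76.35. The gap of Adamts9, from 656.6 to 3392, is the widest, the 4 TIMP genes lie within 1.5-fold, and Adamts6, Adamts16 and Mmp16 have 1 of their signals under the filter.

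The share of members at 1.5-fold has to be read with their brightness. When all 11122 genes were divided into 5 equal groups by mean signal, 15 of the 26 members fell in the dimmest group, which held 7 of the 9 members past 1.5-fold (2 higher and 5 lower). In that group 10.5% of all genes lay past 1.5-fold upward and 14.2% downward, and the log2 ratios of all its genes had an SD of 0.57. Outside it, 2 of 11 members were 1.5-fold higher (Adamts9 and Adam19) and 0 lower, where 4.15% of 8896 genes were higher and 2.51% lower. The technical SD, computed from the difference between the 2 brightest probe sets past the filter of the same gene, was 0.267 over 5213 genes and 0.261 over the 12 members that have such a pair. It measures disagreement between probe sets of a gene on these arrays, so any error that both share cancels in it, and it covers no variation between cultures. It is pooled over all signal levels and is not specific to dim genes.

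**Figure D2:**
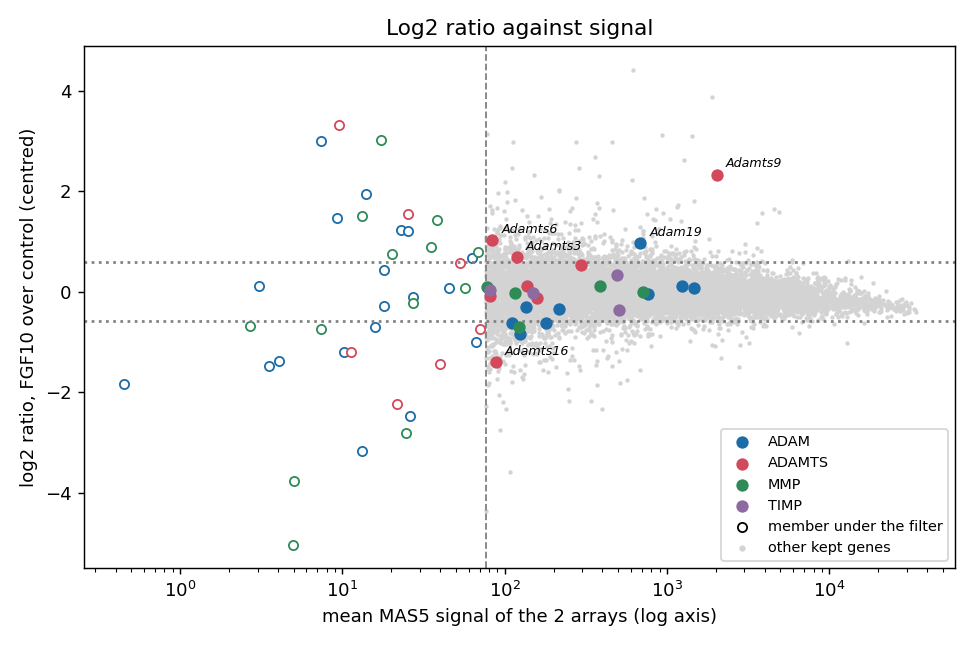
Log2 ratio of FGF10 over control against the mean MAS5 signal of both arrays (log axis) for the 65 members (coloured, filled where they passed the filter and open where they did not) and for the other genes past the filter (grey), with dotted lines at 1.5-fold and a dashed line at the filter of 76.35. Adamts9 and Adam19 are the 2 members past 1.5-fold outside the dimmest signal group, and the members under the filter scatter widely in both directions.

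Adamts9 showed the widest difference among the members that passed the filter and had higher signals with FGF10 on each of its 3 probe sets. It encodes a secreted proteoglycanase that cuts versican and is required for early development of the mouse embryo. Its brightest probe set went from a signal of 656.6 without FGF10 to 3392 with it, which is a log2 ratio of 2.33 or 5.04-fold. Its other probe sets went from 265.6 to 778.4 (1.52) and from 49.2 to 224.1 (2.15). The control signal of the last was under the filter, so that probe set passed only through the FGF10 array, and with the signal raised to 76.35 its ratio was 1.52. The 2 probe sets with both signals above the filter were more than 2-fold higher, and the gene ranked 13th from the highest of 11122 genes by ratio. The SD of the log2 ratios of all genes in its signal group was 0.31. In whole embryoid bodies a change in the number of cells of a type and a change of RNA per cell cannot be told apart, which holds for this and every other value below.

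The other ADAMTS proteoglycanases that passed the filter did not share this difference. Adamts15 had the nearest value, from 237.5 to 350.2 (a log2 ratio of 0.53), just under 1.5-fold, on a single probe set. Adamts1 went from 164.4 to 154.2 (-0.13) and Adamts4 from 82.1 to 79.2 (-0.086), and both lay within the technical SD. The remaining genes of this group, Adamts5, Adamts8 and Adamts20, did not pass the filter. Adamts20, the closest relative of Adamts9 in the family, had signals of 12.7 and 38. Adamts5 had 4 probe sets, the brightest at 58 and 22. Its others went the opposite way, at 15.5 and 31.2, 2.5 and 26.3, and 0.8 and 9.3, all under the filter. Adamts8 was at 86.8 and 53.4. In this group of 7 genes, therefore, 4 could be read, of which Adamts9 alone was past 1.5-fold.

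Among the other ADAMTS genes, differences ran both ways in dim probe sets. Adamts3, which removes the amino-terminal propeptide of procollagens and also processes the lymphatic growth factor VEGF-C, went from 90.2 to 148.4 (0.68), and its second probe set was under the filter at 15.7 and 19.3. Adamts6, whose product acts on matrix microfibrils, went from 54.2 to 113.8 (1.04) and, on its other probe set, from 58.3 to 107.1 (0.84). Both control signals of Adamts6 were under the filter, so the gene passed only through the FGF10 array, and with those signals raised to 76.35 the ratio on the brightest probe set was 0.54, under 1.5-fold. Adamts16 was the reverse case, with signals of 127.1 and 49.1 (-1.41), and it passed only through the control array. Raised in the same way it was at -0.77, and its other probe set had signals of 6.4 and 29.7, in the opposite direction and far under the filter. Adamts10, which binds fibrillin microfibrils, went from 129.3 to 143.8 (0.12).

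**Figure D3:**
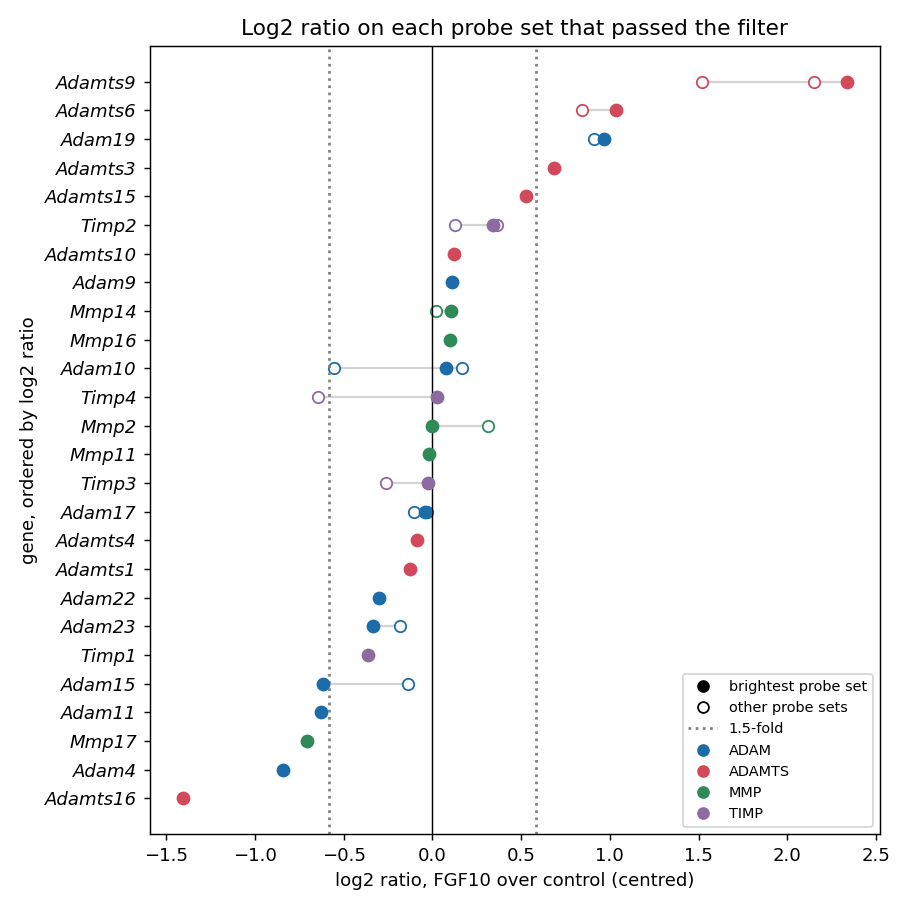
Log2 ratio of FGF10 over control on each probe set that passed the filter, 1 line per gene, with the brightest probe set filled and the others open, colour for family and dotted lines at 1.5-fold. The 3 probe sets of Adamts9 run from 1.52 to 2.33 and those of Adam19 from 0.91 to 0.97, whereas Adam10, Mmp2 and Timp4 have probe sets on both sides of 0.

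Of the ADAM genes, Adam19 was the 1 member past 1.5-fold upward. Adam19 encodes a catalytically active membrane proteinase that sheds neuregulin and is needed for endocardial cushion formation in the mouse heart. Its signal was 456.5 in the control sample and 914 with FGF10 (0.97, or 1.96-fold), and its other probe set went from 155.7 to 299.2 (0.91). Both probe sets gave nearly the same ratio, and all 4 of their signals lay above the filter. Adam19 ranked 159th from the highest of 11122 genes, and the SD of all ratios in its signal group was 0.36.

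The main sheddases were close to equal on the arrays. Adam10, the principal sheddase of Notch receptors and of E- and N-cadherin, had signals of 1420.4 and 1535.1 (0.078). Its other probe sets past the filter disagreed, at 0.17 (498.3 and 572.9) and -0.55 (378.7 and 264.2). Adam17, which sheds tumour necrosis factor and several ligands of the EGF receptor, had signals of 767.8 and 762.6 (-0.044), with -0.10 and -0.031 on its other probe sets. Adam9, another broadly expressed sheddase, went from 1175.9 to 1301.6 (0.11). These ratios on the brightest probe sets of Adam10, Adam17 and Adam9 are all smaller than the technical SD.

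Adam15, a membrane proteinase of cell junctions, went from 217.1 to 144.9 (-0.62) on its brightest probe set, which is of the _x_at type and may bind related transcripts. The other Adam15 probe set past the filter was at 87.4 and 81.5 (-0.14), so the difference was not seen on both. The 3 ADAMs without a working active site that are known mainly from neurons had values below 0 on their brightest probe sets, as did 5951 of all 11122 genes. Adam11 went from 134.4 to 89 (-0.63), Adam22, a receptor for the secreted protein LGI1, from 146.9 to 122.2 (-0.30), and Adam23, another LGI1 partner, from 238.3 to 193.6 (-0.33), with -0.18 on a second probe set. Each also has a probe set under the filter that was not lower with FGF10, at 73.8 and 75.8 for Adam11, 27.5 and 30.6 for Adam22, and 28.4 and 39.4 for Adam23. The values of Adam11 and Adam22 lie in the dimmest signal group and are close to or under its SD of 0.57. Adam4, one of the ADAMs known from testis, went from 157.4 to 89.9 (-0.84) on its 1 probe set and was the 1 gene of 16 in that largely reproductive group to pass the filter.

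Most MMP genes were too dim to read, and 4 of the 5 that passed were near 0. Mmp2, the gelatinase that MT1-MMP activates, had signals of 701.6 and 717.7 (-0.0016), and a second probe set went from 508.6 to 646.3 (0.31). Mmp14, which encodes MT1-MMP, the membrane collagenase, went from 368.1 to 405.8 (0.11), and from 223.6 to 232.1 (0.020) on its other probe set past the filter. Mmp11, a stromelysin activated inside the cell by furin, was at 115.3 and 116.7 (-0.017), and Mmp16, another membrane-type enzyme, at 74.6 and 81.8 (0.099). Mmp17, a membrane-type enzyme held by a lipid anchor, was lower, from 151.1 to 94.7 (-0.71), on a single probe set in the dimmest signal group. The other gelatinase, Mmp9, was under the filter on both of its probe sets, with signals of 20.2 and 56 on the brighter and 10.7 and 22.8 on the dimmer.

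The 4 inhibitor genes all passed the filter and all lay within 1.5-fold. Timp1 was somewhat lower, from 566.1 to 450.6 (-0.36), on its 1 probe set. Timp2, which also takes part in the activation of MMP2, was somewhat higher, from 426.9 to 553.5 (0.34), with 0.36 and 0.13 on its other probe sets past the filter. Both differences exceed the technical SD of 0.267, but neither exceeds the SD of all ratios in the signal group of these genes, 0.364. Neither can be set against variation between cultures. Timp3, which binds to the matrix and inhibits ADAM17 as well as MMPs, was at 148.3 and 149.5 (-0.023), with -0.26 on a second probe set. Its remaining probe sets were under the filter by their mean, but had signals of 50.7 and 90.8, and of 17.9 and 100.3, which differ from the brighter pair. Timp4 had signals of 79.9 and 83.3 (0.026) on one probe set and 97.4 and 63.7 (-0.65) on another, so its direction is not settled. The brightest probe sets of both genes lie in the dimmest signal group.

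The 39 genes under the filter had 55 probe sets, with signals from 0.2 to 88.4. They were 19 ADAM genes (Adam1a, Adam1b, Adam2, Adam3, Adam5, Adam6a, Adam6b, Adam7, Adam8, Adam12, Adam18, Adam21, Adam24, Adam25, Adam26a, Adam28, Adam32, Adam33 and Adam34), 7 ADAMTS genes (Adamts5, Adamts7, Adamts8, Adamts12, Adamts18, Adamts19 and Adamts20) and 13 MMP genes (Mmp1a, Mmp1b, Mmp3, Mmp7, Mmp8, Mmp9, Mmp10, Mmp12, Mmp13, Mmp19, Mmp20, Mmp23 and Mmp24). The median of their mean signals was 18.2, and 28 of the 39 had 1 probe set. For 4 of them the brightest probe set was above 76.35 on 1 array: Adam8 (88.4 on the control array, 45.3 with FGF10), Adamts8 (86.8 and 53.4), Mmp24 (49.7 and 88) and Adam33 (47.6 and 77.4). Ratios of such signals are wide and were not interpreted, as in Mmp12, whose signals of 9.6 and 0.3 correspond to a log2 ratio of -5.03. No difference can therefore be read for these genes, including the collagenases Mmp8 and Mmp13 and the stromelysins Mmp3 and Mmp10. Adam1a and Adam1b, Adam6a and Adam6b, and Mmp1a and Mmp1b are close copies whose probe sets may not tell them apart.

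Members that lie side by side in the genome were mostly under the filter. In assembly GRCm38.p6, by its gene table, 31 genes of these families lie directly beside another member, with no protein-coding gene of another kind between them, in 8 runs. Of the 26 measured genes in these runs 3 passed the filter (Adam9, Adamts1 and Adamts15), against 23 of the 39 members outside them. The longest run, on chromosome 9, holds 10 MMP genes (Mmp13, Mmp12, Mmp1b, Mmp3, Mmp1a, Mmp10, Mmp8, Mmp27, Mmp20 and Mmp7), of which 9 were measured and 0 passed, with no signal above 45.9. On chromosome 8, Adam9 was at 1175.9 and 1301.6, while its neighbours Adam32, Adam5, Adam3 and Adam18 had signals of at most 36. The runs also hold 12 of the 16 measured genes of the largely reproductive ADAM group, so position and known tissue of expression cannot be told apart.

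Genes that activate, assist or oppose these enzymes were likewise mostly near 0. Over the 7 lists of such genes and of substrates, 52 of 89 genes passed the filter. Of these, 6 had values past 1.5-fold upward and 1 downward, against 5.41% and 4.86% of all genes, and their median log2 ratio was -0.0023. The counts in single lists below rest on few genes and are given as descriptions. The convertases that remove the inhibitory prodomains had 0 of 3 past 1.5-fold, with Furin at 350.6 and 366.4 (0.029), and Pcsk6 was at -0.42. The partners that carry ADAM10 and ADAM17 to the cell surface had 0 of 8 past 1.5-fold, among them Rhbdf1 (-0.19) and Tspan5 (0.37). In the list of further inhibitors and inducers 3 of 7 were higher and 0 lower. Reck, a membrane-anchored MMP inhibitor, went from 235.9 to 378.2 (0.65), Spock2, a matrix proteoglycan, from 96.7 to 156.9 (0.66), and A2m, the broad proteinase inhibitor alpha-2-macroglobulin, from 78.7 to 142.6 (0.82). Each of the 3 was read by 1 probe set. Those of Spock2 and A2m lie in the dimmest signal group, where 10.5% of all genes were at least 1.5-fold higher.

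Of 5 related metalloproteinases past the filter, Ece1, which processes endothelin, went from 207.6 to 408.7 (0.94), with 0.18 on its other probe set. Mme, which encodes neprilysin, went from 186.5 to 91 (-1.07) on its 1 probe set past the filter, in the dimmest signal group. The plasminogen activation list had 2 of 8 genes past the filter, Plat (-0.068) and the urokinase receptor gene Plaur (-0.28). In the hyaluronan and lectican list 0 of 6 were past 1.5-fold on their brightest probe sets. Vcan, the versican gene and a main substrate of ADAMTS9, went from 909.5 to 763.7 (-0.29), with other probe sets between -0.72 and 0.074. Has2, the hyaluronan synthase, went from 1268.8 to 909.4 (-0.51), with -0.61, just past 1.5-fold, on its other probe set past the filter. Among ligands and receptors that ADAMs shed, 2 of 21 were higher and 0 lower: Cdh2, or N-cadherin, from 980.3 to 2011.9 (1.003), with 1.14 on its other probe set, and the Notch ligand gene Jag1 from 783.6 to 1354 (0.75; its probe sets span 0.26 to 1.01). Notch1 (-0.15), Dll1 (-0.51), Cdh1 (-0.099), Hbegf (0.071) and Tgfa (0.30) were within 1.5-fold. The neuregulin gene Nrg1, a substrate of ADAM19, was at 79 and 74.5 (-0.12).

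**Figure D4:**
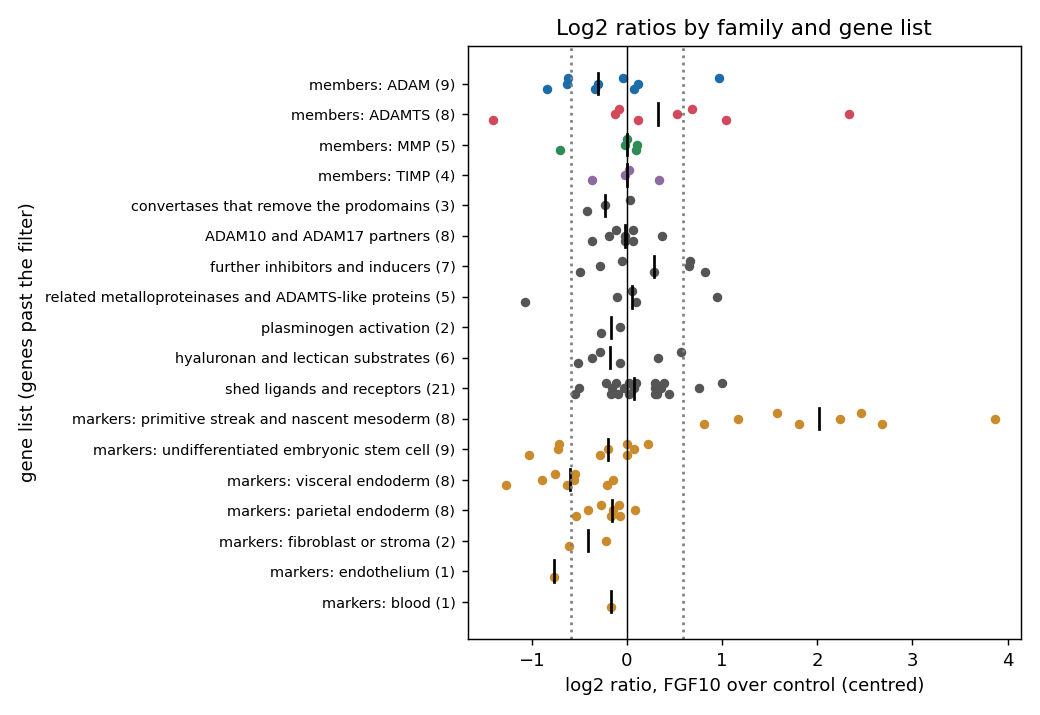
Log2 ratio of FGF10 over control for the genes past the filter, by family of members (coloured), by list of activators, partners, inhibitors and substrates (dark grey) and by list of cell type markers (ochre), with a black bar at the median, the number of genes in brackets and dotted lines at 1.5-fold. The 8 streak markers past the filter lie entirely above 1.5-fold, while the 4 families spread around 0 with Adamts9 at 2.33 apart from the rest.

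Markers of cell types differed between the arrays, on which 5.41% of all genes were at least 1.5-fold higher and 4.86% lower. Of 10 markers of the primitive streak and nascent mesoderm, 8 passed the filter and all 8 were at least 1.5-fold higher, with a median log2 ratio of 2.02. Tbx6 and Msgn1 were under the filter. Signals over all 10 summed to 3452.2 in the control and 14381.8 with FGF10. Such sums, here and below, are weighted to the brightest probe sets and are not transcript amounts. Of 8 visceral endoderm markers, 4 were at least 1.5-fold lower (Apoa1, Hnf4a, Cubn and Ttr) and 0 higher. The summed signal of all 8 was 8776.6 and 5870.2. Hnf4a lies in the dimmest signal group, and its probe sets past the filter disagreed, running from -0.90 to 0.15. The 9 markers of undifferentiated stem cells, all past the filter, summed to 58441 and 50121.1. Of these, 3 were lower (Dppa5a, Utf1 and Zfp42), 0 higher and 6 within 1.5-fold. The lower sum rests on Dppa5a, from 17188.2 to 8648.7 (-1.03). Pou5f1 (0.073), Nanog (0.22), Sox2 (-0.0026) and Tdgf1 (0.0035) were not lower by 1.5-fold, so the list had no common fall. The 8 parietal endoderm markers, all past the filter, were all within 1.5-fold (18104.6 and 16735.2). Of the fibroblast markers 6 of 8 were under the filter, Col1a1 with signals of 9.4 and 8, and of the endothelial markers 5 of 6, while 1 of 4 named blood markers passed. Among those that passed, Thy1 of the fibroblast list (369.4 to 248.3, -0.61) and the endothelial Tek (107.3 to 64.5, -0.77) were lower. Tek passed only through the control array. The fibroblast Col1a2 (-0.22) and the blood marker Cd68 (-0.17) were within 1.5-fold. The part of these cell types in the values of Adamts9, Adam19 and the other members was not tested.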

How the data were processed

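Total RNA of 1 sample per group was measured on 1 Affymetrix expression array each. The deposited values are MAS5 intensity values, here called signals, on a linear scale, per the labels' processing fields, with no version or settings given. MAS5 subtracts mismatch probes, which makes dim signals noisy, and without the outer 2% at each end both columns average 500.003, so ratios are relative to the rest of each array. The number of arrays and, for dim probe sets, the signal limit the precision. Detection calls were not used.

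The platform annotation gave the gene of each probe set, and 5 that name a member beside another gene were left out. All 65 members had an identifier in the gene table for GRCm38.p6, and 0 symbols changed. That table holds 15 further genes of these families, not analysed here. No genome build is given in the sources used here, so no coordinates are printed. The log2 ratios had no offset and were centred by subtracting 0.034. With 1 array per group, a fixed size of 1.5-fold or 2-fold stood in for a test. Members named with values are all those past the filter, and those under it are named without ratios, apart from examples chosen after their values were seen. Listed genes are up to 4 per list past 1.5-fold, and others were likewise chosen after their values were seen. The members, lists and alternatives were chosen with earlier results of these data known. The procedure was tested on simulated data. Python 3.11.15, pandas 2.3.3, statsmodels 0.14.6 and scipy 1.17.1 were used. The alternatives were no centring, quantile or loess normalization (span 0.3), an offset of 20.5, other filters, other choices of probe set, raising dim signals to the filter, and a 3-fold threshold.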

Additional observations from a re-analysis of the deposited data

How the results depend on the processing

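No paired analysis was possible because each group had 1 array, and for the same reason no array could be left out. Adamts9 (1.52 to 2.37) and Adam19 (0.91 to 1.004) stayed past 1.5-fold under all 12 settings, the main one included, and Adam4 (-0.88 to -0.72) and Mmp17 (-0.75 to -0.61) under the 11 that kept them. However, Adam4 and Mmp17 each have 1 probe set, with both signals above the filter. Other choices of probe set and raised dim signals therefore could not change them beyond the centring, and other filters either dropped them or shifted only the centring. The value of Adam15 stayed past 1.5-fold in 6 of 11 settings, and no member past 1.5-fold changed sign. The main counts were 4 members at least 1.5-fold higher, 5 lower, and 2 and 1 at 2-fold. Without a signal filter, over 65 members, these became 19, 22, 12 and 13, where 13.8% of all genes were 1.5-fold higher and 15.9% lower. At the 75th percentile filter (444.1), over 8 members, they were 2, 0, 2 and 0 (all genes 3.56% and 1.42% at 1.5-fold), since 7 of the 9 lie under it. With an offset of 20.5 there were 3 members 1.5-fold lower and 1 member 2-fold higher. Requiring both signals above the filter left 1 member 2-fold higher and 0 lower, as did raising dim signals to it. With the mean over probe sets, or the second brightest one, 1 member was 2-fold higher, and on the second brightest Timp4 was past 1.5-fold (-0.65). At 3-fold, 1 member was left of 3. For the genes in the other lists (6 higher, 1 lower), there were 2 lower after quantile or loess normalization and on second brightest probe sets, 13 higher and 9 lower without a filter, and 2 and 0 at the stricter filter. The median over members moved by less than the technical SD throughout. Except for the filters, whose construction sets how many genes are read, the cause was not tested. Signals under 76.35 limit what can be read for 39 members and for Adamts6, Adamts16 and Mmp16.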
